A study of Homo sapiens with 9 samples.

Results

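The clustered replication-dependent histone genes were followed across MDA-MB-231 cells, a human triple-negative breast cancer line, that carried hairpin shco4, hairpin shco2 or a scramble hairpin. Members were taken by name: every probe set whose single gene symbol in the platform annotation was H1-1 to H1-6 or a numbered H2AC, H2BC, H3C or H4C gene. This gave 41 probe sets for 40 genes, among 19064 probe sets with 1 symbol for 11963 genes. By class there were 6 H1, 8 H2A, 12 H2B, 7 H3 and 8 H4 probe sets, and H2BC5 was the only gene with 2 of them. The family itself had been selected on earlier results from the intensities of these same 9 arrays, and its members then by name alone, with no threshold. The counts and adjusted p-values given for members thus describe them and are no independent evidence of a direction.

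The shco4 and shco2 hairpins both target Coco, the secreted protein encoded by DAND5 that binds and blocks BMP, Nodal and activin ligands. All lines, the scramble line included, were stable lines made with a lentiviral pLKO vector and grown in DMEM medium with fetal bovine serum, with 3 biological replicates and 1 array each. The labels do not say whether a line was a clone or a pool of transduced cells, so a difference between lines and an effect of the hairpin cannot be told apart. No probe set carries the symbol DAND5, so the level of the targeted gene was not analysed here. Values are linear Affymetrix intensities as the authors scaled them, and array medians lay between 122 and 129. Of the markers of the line, VIM averaged 12800, 9860 and 12300 with shco4, shco2 and scramble, while PGR averaged 4.31, 2.45 and 0.898. CDH1, an epithelial cadherin that the line is known to hold little of, averaged 212 with shco4, 38.6 with shco2 and 96.6 with scramble. Of 3 markers the line is known to express, VIM among them, 3 were called down with shco2 against scramble and 1 up with shco4. Of 4 it is known to lack or hold little of, 1 was called down with shco2, and 1 up and 1 down with shco4. Over all probe sets 9.95% were called down with shco2, and 9.05% up and 9.75% down with shco4. Of markers of blood cells and fibroblasts, PTPRC averaged 20.3, 15.3 and 15.1, PDGFRA 10.2, 5.84 and 11.1 and DCN 38.6, 26.2 and 39.0 in the same order of lines, and none was called.

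Replication-dependent histones package newly made DNA. H2A, H2B, H3 and H4 form the core of the nucleosome and H1 binds the linker DNA between nucleosomes. Their genes lie in clusters, lack introns and are transcribed mainly in S phase, with NPAT as the dedicated coactivator. Their mRNAs normally end in a stem-loop bound by SLBP in place of a poly(A) tail. Some of these genes can also give polyadenylated transcripts, as is known for cells that leave the cycle or differentiate. The labelling kit used here copies RNA from the 3′ end and, as background, starts from oligo-dT, which favours polyadenylated RNA. The arrays thus do not measure the stem-loop mRNA evenly, and polyadenylated and stem-loop forms cannot be told apart from the intensities.

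Promoter windows from RefSeq (GRCh38.p14), 300 bases each from 250 before to 50 after the transcription start, were found for 38 of the 40 genes, in 41 windows. Of these genes 36 lie on chromosome 6 and 2 on chromosome 1. The windows shown belong to the H1, H2A, H2B and H4 gene with the largest difference between shco4 and scramble, and to H2BC17, which shares its promoter region with another member that rose. H1-2 lies at chr6:26056421-26056720 on the minus strand, H2AC6 at chr6:26123922-26124221 on the plus strand, H2BC21 at chr1:149886633-149886932 on the minus strand, H2BC17 at chr6:27893175-27893474 on the plus strand and H4C8 at chr6:26285485-26285784 on the minus strand. Each is written 5′ to 3′ along the strand of its gene. Capitals mark any match, on either strand, to the TATA box letters TATAAA, the CCAAT box letters CCAAT, the octamer letters ATTTGCAT, the letters AAACACA (the AC box of H1 genes), the letters GGTCCG (the core of the H4 subtype element) and the E2F letters, spelled TTTCGCGC or else TTTGGCGC. In H2BC21 a CCAAT match overlaps an H4 core match.
H1-2: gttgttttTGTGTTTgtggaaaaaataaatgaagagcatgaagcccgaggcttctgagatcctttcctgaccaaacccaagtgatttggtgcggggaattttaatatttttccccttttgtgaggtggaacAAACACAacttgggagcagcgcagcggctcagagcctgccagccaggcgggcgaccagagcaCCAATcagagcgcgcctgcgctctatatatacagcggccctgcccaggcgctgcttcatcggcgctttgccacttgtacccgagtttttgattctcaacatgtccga
H2AC6: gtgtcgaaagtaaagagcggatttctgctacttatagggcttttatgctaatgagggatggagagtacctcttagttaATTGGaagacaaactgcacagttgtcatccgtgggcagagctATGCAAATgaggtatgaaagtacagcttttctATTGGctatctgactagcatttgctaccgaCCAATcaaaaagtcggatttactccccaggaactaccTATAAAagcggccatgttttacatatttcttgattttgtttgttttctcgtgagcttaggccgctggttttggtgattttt
H2BC21: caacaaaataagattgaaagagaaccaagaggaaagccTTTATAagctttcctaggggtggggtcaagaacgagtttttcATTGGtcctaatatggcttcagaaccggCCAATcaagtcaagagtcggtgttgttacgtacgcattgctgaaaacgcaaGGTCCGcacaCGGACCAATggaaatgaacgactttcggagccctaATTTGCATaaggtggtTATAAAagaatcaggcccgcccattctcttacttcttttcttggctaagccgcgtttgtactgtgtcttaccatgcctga
H2BC17: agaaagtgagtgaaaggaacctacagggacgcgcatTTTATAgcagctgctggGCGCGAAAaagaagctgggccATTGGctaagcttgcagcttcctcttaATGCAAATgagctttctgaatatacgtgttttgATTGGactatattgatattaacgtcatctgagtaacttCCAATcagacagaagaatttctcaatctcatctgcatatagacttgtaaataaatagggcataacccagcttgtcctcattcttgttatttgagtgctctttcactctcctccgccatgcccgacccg
H4C8: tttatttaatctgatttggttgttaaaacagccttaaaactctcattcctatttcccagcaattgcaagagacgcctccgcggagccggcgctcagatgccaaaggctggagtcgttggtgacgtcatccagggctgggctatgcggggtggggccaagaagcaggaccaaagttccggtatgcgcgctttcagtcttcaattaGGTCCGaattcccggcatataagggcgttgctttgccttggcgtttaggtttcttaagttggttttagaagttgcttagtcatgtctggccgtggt

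These letters were more frequent in the windows of the family than in all windows, and their shares differed by class. TATAAA was found in 65.9% of the 41 windows, against 11.5% of all 35116 windows of that length. CCAAT was found in 87.8% of the family's windows, against 34.6% of all windows. The octamer was found in 36.6% of the family's windows, against 1.77% of all. The E2F letters were found in 24.4% against 1.15%, the AC box in 14.6% against 5.64% and the H4 core in 19.5% against 11.3%. The AC box was found in 6 of 6 H1 windows and in no window of the other classes. The octamer was found in 6 of 8 H2A windows and 9 of 13 H2B windows, and in none of H1, H3 or H4. The H4 core was found in 6 of 7 H4 windows. A match is a run of letters and not a shown site.

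Most members were dim on these arrays. A floor of 16 was set before log2 was taken, and 4 probe sets (H1-1, H1-5, H2AC8 and H3C8) lay at or under it on all 9 arrays, so they could show no difference. Another 17 were above the floor on all 9 arrays. The number above the floor on every array of a line was 24 with shco4, 20 with shco2 and 19 with scramble. Of the 41 probe sets, 13 averaged 100 or more in at least 1 line, and H2AC17, H2BC17 and H2BC21 did so with shco4 alone. Because histone genes within a class are nearly identical in their coding sequence, probe sets can bind transcripts of several genes. The IDs of 7 members end in _x_at and those of 4 in _s_at, marks the manufacturer uses for probes shared with other transcripts. The _x_at ones are those of H2AC14, H2BC5 (both), H2BC6, H2BC9, H3C8 and H4C11. The _s_at ones are those of H2AC6, H2BC21, H3C2 and H4C8. Their values are therefore uncertain as to the gene. A plain _at ID does not mark a single gene either, since some probe sets that list several histone genes carry it.

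With shco4, 16 of the 41 histone probe sets were higher than in scramble, and 9 of these were H2B probe sets. H1-2 was 7.09-fold and H4C8 7.32-fold higher than in scramble. H2BC21 was 5.76-fold and H2AC6 5.56-fold higher. The probe sets of H4C8, H2BC21 and H2AC6 are of the _s_at kind, so these folds cannot be tied to the named gene alone. Differences were tested with limma, 1 linear model over all 9 arrays, and called at an adjusted p under 0.05 after Benjamini-Hochberg adjustment over 22215 probe sets. In this test 16 of the 41 members rose with shco4 against scramble and 0 fell, beside 9.05% called up and 9.75% called down over all probe sets. At an unadjusted p under 0.05 the counts were 21 up and 1 down. With arrays of one replicate number fitted as a block, 15 were called up and 0 down. The members' median log2 difference was 0.47, against 0.00 over all probe sets. It was 0.00 with a floor of 64 and 0.96 with dim probe sets filtered out. Without _x_at and _s_at probe sets it was 0.18, and 7 of the remaining members were called up. The filter kept probe sets above 16 on at least 3 arrays, which the 3 shco4 arrays alone can meet. Its larger median is therefore partly set by that selection. Every shco4 array lay above every scramble array for 21 members and under them for 1, beside 16.7% and 15.9% of all probe sets. In bulk RNA a larger share of cells with histone RNA and more of it per cell cannot be told apart.

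The hairpins differed from each other in the same family. With shco4 against shco2, 16 members rose and 0 fell in the limma test, beside 14.9% called up and 16.1% called down over all probe sets. At an unadjusted p under 0.05 there were 17 up and 2 down. The replicate block gave 14 called up and 1 down. The median log2 difference was 0.42, against 0.00 over all probe sets. It was 0.00 with a floor of 64 and 0.81 with the filter, which can be passed through the shco4 arrays alone. Without _x_at and _s_at probe sets it was 0.18, and 8 of the remaining members were called up. The shco4 arrays all lay above the shco2 arrays for 17 members and below them for 2, H2AC4 and H3C3, beside 20.1% and 20.8% of all probe sets. The counts against scramble and against shco2 share the shco4 arrays, so each is given by itself.

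With shco2 against scramble a single member passed the test. The limma test called 0 members up and 1 down, H2BC21, beside 10.7% called up and 9.95% called down over all probe sets. At an unadjusted p under 0.05 there were 6 up and 3 down. The median log2 difference was 0.00, as over all probe sets. The shco2 arrays all lay above the scramble arrays for 6 members (H2AC4, H2AC17, H2BC3, H2BC11, H3C2 and H4C8), beside 19.4% of all probe sets. They all lay below them for H2BC21 alone, beside 16.4%. When arrays of one replicate number were fitted as a block, H2AC4 and H4C8 were called up.

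**Figure D1:**
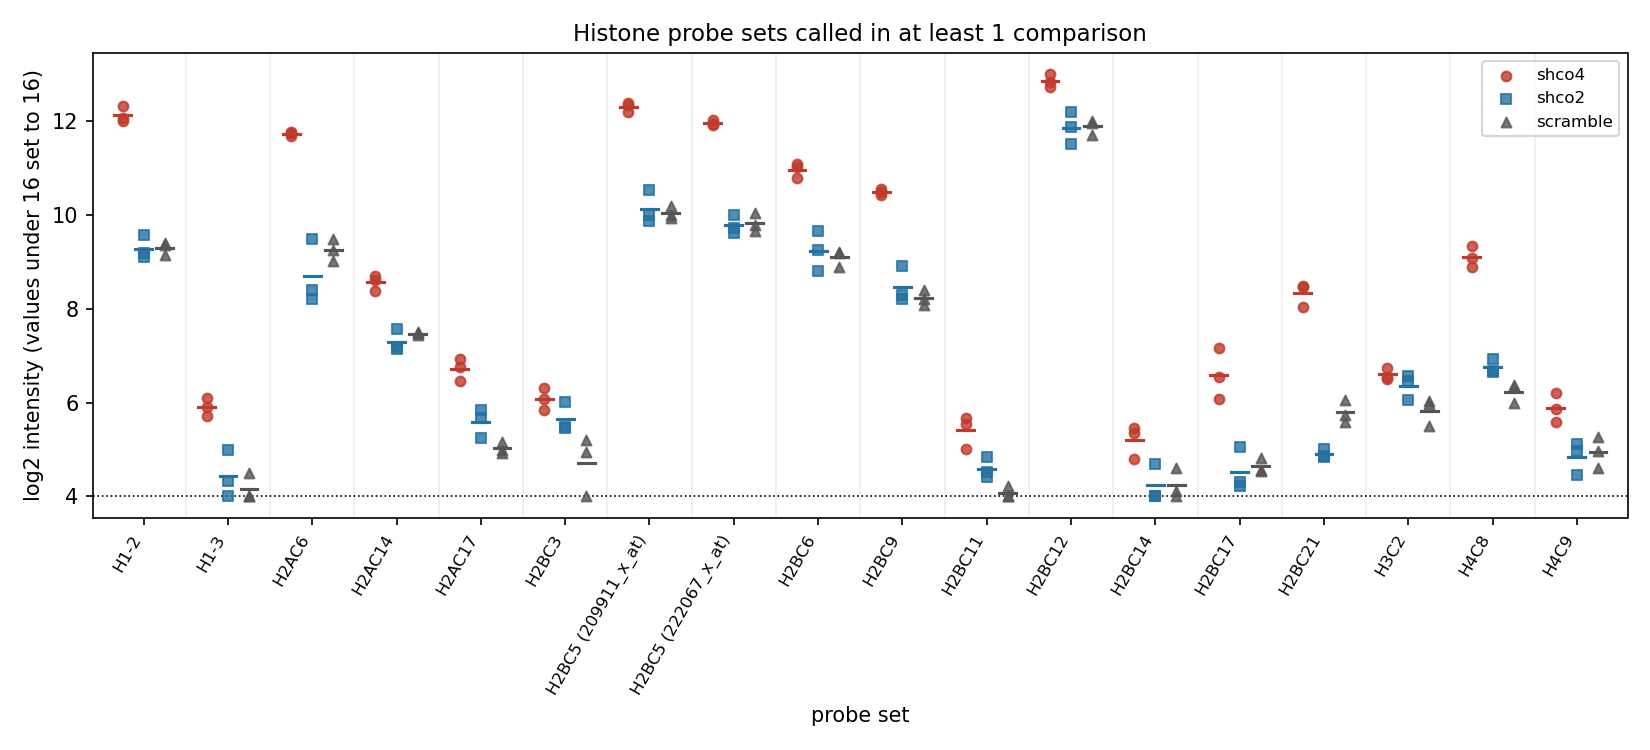
Log2 intensity (y axis) of the 18 histone probe sets called in at least 1 comparison (x axis), with 1 point per array, a bar at the group mean and a dotted line at the floor of 16, for shco4, shco2 and scramble. The shco4 mean of H1-2 is 12.12, against 9.28 with shco2 and 9.30 with scramble, and the shco4 arrays of H3C2 overlap those of shco2.

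Among the linker histones, H1-2 and H1-3 rose with shco4. H1-2, one of the linker histones known to give polyadenylated RNA, read 5115, 4093 and 4233 with shco4, against 546.7, 756.6 and 577.2 with shco2 and 656.1, 562 and 675 with scramble. The shco4 arrays stood far apart, and the shco2 and scramble arrays overlapped. It differed by log2 2.83 ± 0.15 (SE) between shco4 and scramble (limma adjusted p = 0.000266) and 2.85 between shco4 and shco2 (8.34e-05). H1-3 was dim, at 59.61, 68.8 and 52.64 with shco4, against 11.5, 20.11 and 31.67 with shco2 and 11.96, 8.532 and 22.75 with scramble. Its shco4 arrays lay above all others, but 2 of 3 scramble arrays were under the floor. Its log2 difference from scramble was 1.74 ± 0.28 (limma adjusted p = 0.00748), a size that depends on the floor, and with a floor of 64 it was 0.03 (0.587).

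The other H1 genes gave no call. H1-4 overlapped in all 3 lines, with a log2 difference of 0.05 between shco4 and scramble. H1-6, the testis linker histone, read 96.68, 35.89 and 48.83 with shco4 and 18.73, 14.61 and 55.21 with shco2, against 5.165, 4.125 and 9.575 with scramble. Scramble was thus under the floor on every array and shco4 above it on every array. The log2 difference of 1.79 between shco4 and scramble is a lower bound, and its limma adjusted p was 0.0704.

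Among H2A genes, which encode the core histone that pairs with H2B, 3 of 8 probe sets rose with shco4 both against scramble and against shco2. The shares called up over all probe sets were 9.05% against scramble and 14.9% against shco2. H2AC6 read 3280, 3446 and 3425 with shco4, against 336.4, 712.8 and 294.1 with shco2 and 514, 717.1 and 610.2 with scramble. The shco4 arrays were close together and apart from the rest, and shco2 replicate 2 lay well above the other shco2 arrays. Its log2 difference was 2.48 ± 0.33 against scramble (limma adjusted p = 0.00413) and 3.03 against shco2 (0.000874). Between shco2 and scramble it was -0.56 (0.332). Without shco2 replicate 2 it was -0.95 (0.013), a call that appeared when that array was left out.

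H2AC14 and H2AC17 moved less. H2AC14, a probe set of the _x_at kind, read 415.6, 392.1 and 333.4 with shco4, against 145, 188.3 and 140.8 with shco2 and 178.3, 173 and 180.1 with scramble. The shco4 arrays lay above all others, by 2.14-fold on average against scramble (log2 1.10 ± 0.13, limma adjusted p = 0.00274). H2AC17 read 108, 88.24 and 120.8 with shco4 and 38, 50.92 and 57.54 with shco2, against 30.54, 31.99 and 35.82 with scramble. Its 3 lines did not overlap, with shco4 highest and scramble lowest. The log2 difference was 1.68 ± 0.18 for shco4 against scramble (limma adjusted p = 0.00207), 1.12 for shco4 against shco2 (0.00414) and 0.56 for shco2 against scramble (0.0812). With a floor of 64 the difference of shco4 from scramble was 0.71 (0.00682).

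H2B was the class with the most calls. Of its 12 probe sets 9 rose with shco4 against scramble and 9 against shco2, beside 9.05% and 14.9% of all probe sets. The median log2 difference from scramble was 1.61. The probe sets of H2BC5 (both), H2BC6 and H2BC9 are of the _x_at kind, so 9 calls need not mean 9 separate genes. Both probe sets of H2BC5, a core histone gene known to give polyadenylated RNA, moved alike. Both are of the _x_at kind and may read shared transcripts. One of them read 5171, 4637 and 5344 with shco4, against 925.9, 1463 and 1019 with shco2 and 1020, 968.8 and 1160 with scramble. Its other probe set read 4170, 3911 and 3837 with shco4, against 841.5, 1021 and 779.6 with shco2 and 1047, 875 and 798.7 with scramble. In both, shco2 and scramble overlapped and shco4 stood apart. The log2 differences from scramble were 2.27 ± 0.18 and 2.14 ± 0.13 (limma adjusted p = 0.000745 and 0.000397), and 2.18 from shco2 for each.

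H2BC21 was the member with the largest difference between the hairpins. This gene of the chromosome 1 cluster, also known for polyadenylated transcripts, read 350, 262 and 357.2 with shco4 and 28.47, 32.19 and 29.03 with shco2, against 53.5, 66.45 and 48.15 with scramble. The 3 lines did not overlap, with shco4 highest and shco2 lowest. H2BC21 gave a log2 difference of 2.53 ± 0.16 for shco4 against scramble (limma adjusted p = 0.000455) and 3.42 for shco4 against shco2 (5.87e-05), a 10.7-fold difference. It was -0.90 ± 0.16 for shco2 against scramble (0.0104), the 1 call among the members in that comparison. With a floor of 64 that last value was -0.02 with an adjusted p of 1, since the probe set is dim in both lines, and the difference between the hairpins was 2.32.

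H2BC6, H2BC9 and H2BC12 were also bright, and the probe sets of H2BC6 and H2BC9 are of the _x_at kind. H2BC6 read 2072, 1757 and 2176 with shco4, against 442.9, 809.9 and 607.8 with shco2 and 589, 475.7 and 585 with scramble, a log2 difference from scramble of 1.86 ± 0.22 (limma adjusted p = 0.00295). H2BC9 read 1439, 1368 and 1486 with shco4, against 292.9, 477.9 and 312.6 with shco2 and 270.7, 335.6 and 295.7 with scramble, a log2 difference of 2.26 ± 0.19 (0.000945). In both the shco4 arrays lay above all others. H2BC12, another gene known for polyadenylated RNA, read 6781, 7296 and 8148 with shco4, against 2899, 4634 and 3724 with shco2 and 3335, 3987 and 4070 with scramble. The difference from scramble was 1.95-fold (log2 0.97 ± 0.18, limma adjusted p = 0.0131), without overlap.

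The dim H2B probe sets gave less firm calls. H2BC17 read 67.13, 93.51 and 142.5 with shco4, against 18.79, 33.04 and 19.81 with shco2 and 23.45, 28.1 and 23.63 with scramble. The shco4 arrays lay above all others and were spread by more than the other lines. The log2 difference from scramble was 1.95 ± 0.33 (limma adjusted p = 0.00898), and 0.59 (0.192) with a floor of 64. H2BC11 read 32.4, 50.6 and 46.36 with shco4 and 28.61, 23.05 and 21.29 with shco2, against 9.74, 12.4 and 18.68 with scramble, with 2 scramble arrays under the floor. Its log2 difference from scramble was 1.33 ± 0.19 (limma adjusted p = 0.0054), and 0.00 with a floor of 64. Its call against shco2 (log2 0.81, limma adjusted p = 0.0191) ended when shco2 replicate 2 (0.062), shco2 replicate 3 (0.0648), shco4 replicate 2 (0.0568) or shco4 replicate 3 (0.0613) was left out. The block ended it as well (0.0519).

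H2BC3 and H2BC14 were each called in 1 comparison. H2BC3 read 66.95, 57.65 and 79.78 with shco4 and 44.29, 43.75 and 64.77 with shco2, against 37.06, 9.589 and 30.7 with scramble. Its shco4 arrays lay above scramble and overlapped shco2, with a log2 difference from scramble of 1.36 ± 0.34 (limma adjusted p = 0.0363). With a floor of 64 it was 0.13 (0.403). Leaving out 1 array ended the call for 6 of the 9, given here by line and replicate number: scramble 3 (0.0672), shco2 1 (0.0571) and 2 (0.0594), and shco4 1 (0.0922), 2 (0.0649) and 3 (0.0986). H2BC14 read 40.64, 43.92 and 27.92 with shco4, against 16.16, 25.92 and 11.96 with shco2 and 12.61, 17.3 and 24.21 with scramble. The shco4 arrays lay above all others, narrowly. The log2 difference was 0.96 ± 0.28 against shco2 (limma adjusted p = 0.0402) and 0.96 against scramble (0.0583). Against shco2 it was 0.00 with a floor of 64, its adjusted p was 0.0688 with the block, and 6 arrays each ended the call when left out: scramble 1 (0.056) and 2 (0.0645), shco2 1 (0.12) and 3 (0.121), and shco4 1 (0.113) and 2 (0.118).

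H3 and H4, which form the central tetramer of the nucleosome, gave few calls among probe sets with 1 symbol. H4C8 read 644.3, 543.5 and 471.9 with shco4 and 101.9, 121.2 and 100.3 with shco2, against 82.34, 80.19 and 63.73 with scramble. The 3 lines did not overlap, with shco4 far above the other lines. H4C8 gave a log2 difference of 2.87 ± 0.15 for shco4 against scramble (limma adjusted p = 0.000266) and 2.35 for shco4 against shco2 (0.000146). It was 0.52 for shco2 against scramble (0.0588).

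H3C2 and H4C9 were weaker. H3C2 read 93.87, 91.06 and 106.6 with shco4 and 66.35, 87.37 and 94 with shco2, against 62.67, 65.02 and 44.95 with scramble. The shco4 arrays lay above scramble and overlapped shco2. The log2 difference from scramble was 0.77 ± 0.19 (limma adjusted p = 0.033), while 0.0715 was the adjusted p when arrays sharing a replicate number formed a block. 7 arrays each ended the call when left out: scramble 1 (0.0621), 2 (0.0531) and 3 (0.0646), shco2 2 (0.0557), and shco4 1 (0.0791), 2 (0.0672) and 3 (0.0913). H4C9 read 57.78, 73.52 and 47.89 with shco4, against 34.74, 21.84 and 31.37 with shco2 and 38.53, 31.09 and 24.51 with scramble. Its shco4 arrays lay above all others. It was called against shco2 (log2 1.03 ± 0.26, limma adjusted p = 0.0234) and not against scramble (0.93, 0.0513). With a floor of 64 the difference from shco2 was 0.07 (0.527), and leaving out shco2 2 (0.0639) or 3 (0.053), or shco4 1 (0.0613) or 2 (0.0708), ended the call.

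The other 23 member probe sets were not called in any comparison. H4C11 was the 1 among them that averaged 100 or more in a line: its probe set read 111.4, 120.6 and 123.6 with shco4, against 102.1, 102.9 and 127 with shco2 and 109.5, 74.14 and 76.34 with scramble. The log2 difference between shco4 and scramble was 0.47 (limma adjusted p = 0.104). That probe set was designed on a transcript now assigned to H4C12, so the gene is uncertain. H3C6 was the 1 member whose shco4 arrays all lay below scramble, at 14.33, 4.928 and 18.37 with shco4 and 12.1, 30.5 and 18.54 with shco2, against 40.33, 24.19 and 49.76 with scramble. Its log2 difference was -1.12 (limma adjusted p = 0.0618). H3C6, H1-6, H2BC14, H4C9 and H2BC15 passed the test against scramble when dim probe sets were filtered out before the adjustment. H2BC15 met that filter through its shco4 arrays alone, with every shco2 and scramble array under the floor.

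**Figure D2:**
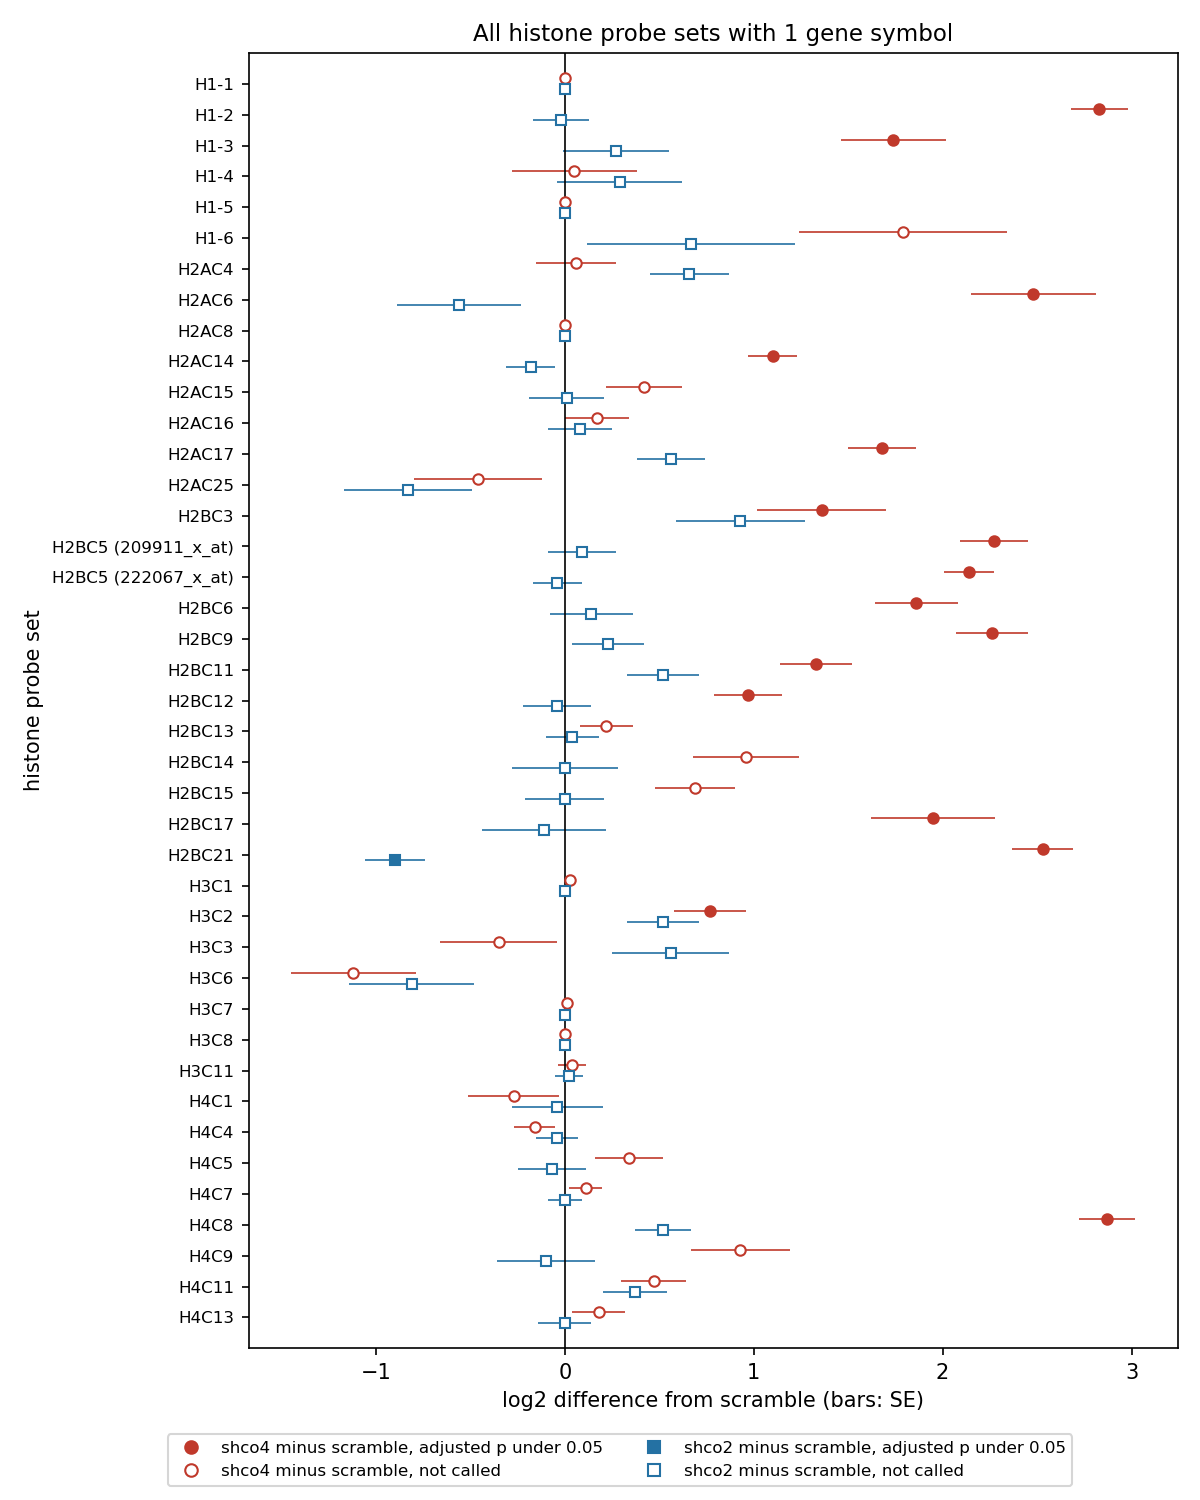
Log2 difference from scramble for all 41 histone probe sets with 1 symbol, with bars of 1 SE, for shco4 (circles) and shco2 (squares), filled where the adjusted p was under 0.05. Of the circles 16 are filled, all to the right of 0, and of the squares 1, H2BC21 at -0.90.

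Genes known, as background, to give polyadenylated transcripts were set apart by name. The list held H1-2, H2AC6, H2BC4, H2BC5, H2BC12 and H2BC21, of which all but H2BC4 had a probe set with 1 symbol. All 6 of their probe sets, of which H2BC5 has 2, rose with shco4 against scramble, with a median log2 difference of 2.37. All 6 also rose against shco2, with a median of 2.51. Over all probe sets 9.05% were called up with shco4 against scramble and 14.9% against shco2. Of the other 35 members 10 rose against scramble, with a median of 0.22, and 10 rose against shco2, with a median of 0.18. The list was drawn up with results of these arrays known, and its probe sets are also bright. Whether the transcripts measured were polyadenylated was not tested. The share called also went with the kind of probe set: 5 of 7 _x_at, 4 of 4 _s_at and 7 of 30 plain _at members rose with shco4 against scramble.

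Another 20 probe sets list several histone genes each and are no members, since no single gene can be named. With shco4 against scramble 10 of them rose and 1 fell, beside 9.05% and 9.75% of all probe sets. Against shco2 the counts were the same, beside 14.9% and 16.1%. With shco2 against scramble 1 rose, beside 10.7%. The largest difference was in a probe set that lists 10 H3 genes and was designed on H3C10. It read 640.4, 541.7 and 656.9 with shco4 and 40.36, 34.19 and 29.9 with shco2, against 31.03, 19.76 and 28.93 with scramble. The shco4 arrays were 23.4-fold above scramble (log2 4.55 ± 0.20, limma adjusted p = 0.000244) and shco2 against scramble gave 0.41 (0.229). With a floor of 64 the log2 difference was 3.25. Another probe set that lists the same 10 H3 genes lay under the floor on every array, as did one that lists them with H2AC7. Probe sets with the same gene list thus disagreed here. Of the 7 H3 probe sets with 1 symbol, 1 rose against scramble.

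Shared H2A and H2B probe sets rose as well. A probe set that lists 6 H2A genes and was designed on H2AC11 read 319.3, 294.6 and 353.3 with shco4 and 26.07, 40.87 and 35.92 with shco2, against 23.81, 16.25 and 26.6 with scramble, a 14.8-fold difference from scramble (limma adjusted p = 0.000394). One for H2AC18 and H2AC19, of the _s_at kind, read 4694, 4705 and 5130 with shco4 and 879.4, 1097 and 995.4 with shco2, against 749.2, 871.9 and 939.6 with scramble, a 5.69-fold difference (0.000244). One that lists 5 H2B genes and was designed on H2BC4 read 423.7, 419.5 and 346.2 with shco4 and 38.05, 50.03 and 51.28 with shco2, against 57.61, 65.66 and 56.72 with scramble, a 6.59-fold difference (0.000253). In each the shco4 arrays stood apart from both other lines. Other probe sets with the same gene lists rose by less. The one designed on H2AC13, with the 6 H2A genes, was 2.5-fold above scramble. Those designed on H2BC7 and H2BC10, with the 5 H2B genes, were 3.6-fold and 3.36-fold above it. For H2AC18 and H2AC19 the others were 5.34-fold and 1.9-fold above it. The latter was dim, and its log2 difference was 0.00 with a floor of 64.

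The H4 probe sets that list the same 14 genes disagreed. The one designed on H4C3 read 735, 930.8 and 1010 with shco4, against 1644, 1716 and 3401 with shco2 and 1547, 2530 and 3343 with scramble. All shco4 arrays lay below all others, the opposite of H4C8. The log2 difference was -1.41 ± 0.38 against scramble (limma adjusted p = 0.0477) and -1.27 against shco2 (0.0474). The call against scramble ended with a floor of 64 (0.0565), with quantile normalization (0.0532), with a variance trend in the fit (0.0523) and when 1 of 7 arrays was left out: scramble 2 (0.131) or 3 (0.123), shco2 1 (0.0616) or 2 (0.0693), or shco4 1 (0.134), 2 (0.102) or 3 (0.0858). The call against shco2 ended with the floor of 64 (0.0564), quantile normalization (0.0577) and the trend (0.0515), and when any array but scramble replicates 1 and 3 was left out, with adjusted p up to 0.133. Blocking on the replicate number gave an adjusted p of 0.0141 against scramble.

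The other H4 probe sets with these 14 genes did not follow that fall. The one designed on H4C14 read 106.6, 72.2 and 77.24 with shco4 and 64, 73.71 and 62.84 with shco2, against 31.03, 30.56 and 26.66 with scramble. It was higher with either hairpin than with scramble, and the hairpins overlapped. The log2 difference was 1.52 for shco4 against scramble (limma adjusted p = 0.0018) and 1.18 for shco2 against scramble (0.00346), and 0.39 and 0.07 with a floor of 64. The probe set designed on H4C8 was at the floor with shco2 and scramble, which makes its log2 difference of 0.93 (0.0736) between shco4 and scramble a lower bound. The log2 difference was 1.01 (0.0622) in the one designed on H4C2 and 0.07 in the one on H4C11. The H4C2 probe set passed the test with arrays of one number as a block (0.0452), with quantile normalization (0.0456), with median centring (0.0338) and with the filter (0.0285). It was dim, at 54.51, 69.01 and 61.15 with shco4, against 24.19, 25.33 and 45.85 with scramble. With a floor of 64 its log2 difference was 0.04, and 8 of the 9 fits with 1 array left out did not call it. Which H4 transcripts each probe set bound was not tested.

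**Figure D3:**
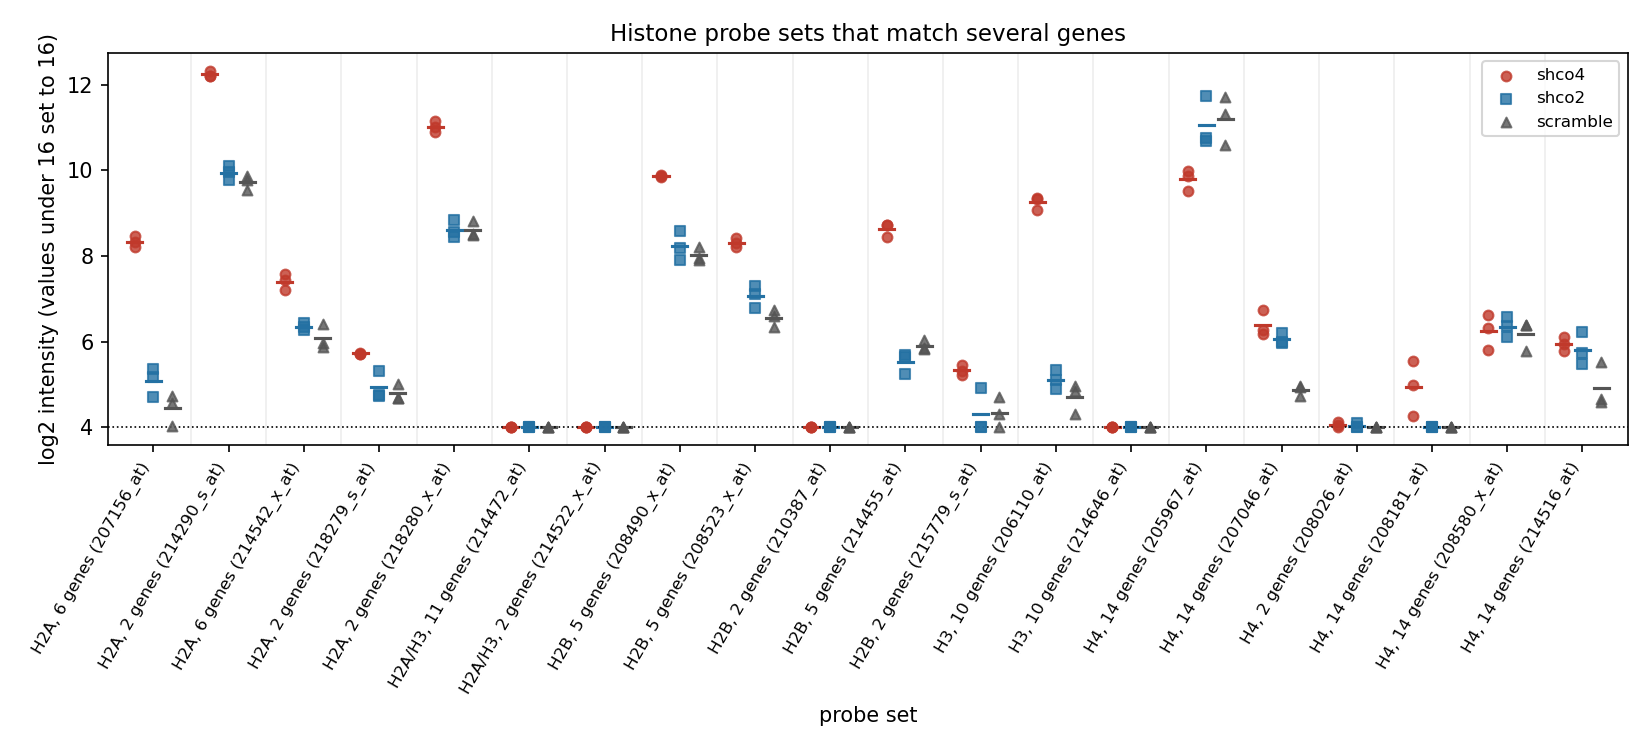
Log2 intensity (y axis) of the 20 probe sets that list several histone genes (x axis), with 1 point per array, a bar at the group mean and a dotted line at the floor of 16, for shco4, shco2 and scramble. In the H4 probe set designed on H4C3 the shco4 mean of 9.79 lies under 11.05 with shco2 and 11.20 with scramble, and 4 probe sets lie at the floor on every array.

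One shco2 array stood somewhat apart. Over the 13 probe sets that averaged 100 or more in a line, the median log2 intensity was 8.19, 8.90 and 8.20 on the 3 shco2 arrays. Replicate 2 gave the highest value of its line for 11 of the 13. Leaving out shco2 replicate 2 changed none of the calls of these 13 between shco4 and shco2. Among the dimmer members it ended those of H2BC11 (limma adjusted p = 0.062) and H4C9 (0.0639). The difference between shco4 and scramble uses no shco2 array, so leaving 1 out can change its calls only through the shared estimate of the spread. Between shco2 and scramble, leaving out shco2 replicate 2 added the call of H2AC6 and no other among the members.

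Promoter letters and neighbours were set beside the calls. The 15 genes called up with shco4 against scramble that have a promoter window had 17 windows, of which 64.7% held the octamer, against 16.7% of the 24 windows of the other members. The octamer was found only in H2A and H2B windows, the classes with most of the calls, so class and octamer cannot be told apart in this count. H2A and H2B genes of these clusters often lie head to head, with a shared stretch of DNA between their starts. Of 12 pairs with overlapping windows, 3 had both genes measured by a probe set of their own. H2AC17 and H2BC17 both rose with shco4 against scramble (log2 1.68 and 1.95). H2AC14 rose (1.10) and H2BC14 did not pass the test (0.96), and neither H2AC15 (0.42) nor H2BC15 (0.69) passed.

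Histone variants that are also made outside S phase gave few calls, in both directions. Of the 9 measured among 11, each at the probe set with the highest mean, 2 rose and 1 fell with shco4 against scramble. Over all probe sets 9.05% were called up and 9.75% down. The median log2 difference was 0.08. Against shco2 the counts were the same, beside 14.9% up and 16.1% down over all probe sets. With so few variants these counts cannot be set apart from those shares. H2AX, the variant phosphorylated at DNA breaks, which has both stem-loop and polyadenylated mRNA, read 5418, 6554 and 6775 with shco4 and 4007, 4271 and 3810 with shco2, against 3515, 3834 and 3273 with scramble. Its shco4 arrays lay above all others (log2 0.82 against scramble, limma adjusted p = 0.00327). H2AJ rose by 1.47 on the log2 scale (0.00318), with scramble at or near the floor, and gave 0.00 with a floor of 64. The probe sets of MACROH2A1, a variant of silent chromatin, disagreed: the one counted fell by 0.39 (0.0112) and another fell by 0.54 (0.00404), while the remaining one rose by 0.35 (0.0407). The call of that rise ended for 8 of the 9 arrays when 1 was left out, with limma adjusted p up to 0.124. Both falls stayed called whichever array was left out. H2AZ1 gave -0.11 (0.524) and H3-3A 0.28 (0.52) at their counted probe sets, while H3-3B has no probe set with 1 symbol. Of 8 probe sets that list both H3-3A and H3-3B, the genes of the replacement histone H3.3, 4 rose with shco4 against scramble, by log2 0.35 to 0.79, and 0 fell. With shco2 against scramble 0 of them rose and 5 fell, with log2 differences of -0.80 to -0.35, beside 10.7% and 9.95% of all probe sets.

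Genes that make and process histone mRNA were counted at 1 probe set a gene, the one with the highest mean. Of the 12 measured among 18, 0 rose and 3 fell with shco4 against scramble, beside 9.05% and 9.75% of all probe sets. At an unadjusted p under 0.05 there were 1 up and 6 down, and the median log2 difference was -0.20. CASP8AP2, which binds NPAT at histone gene clusters, read 185.2, 206.7 and 203.3 with shco4 and 683.2, 607.4 and 701.6 with shco2, against 336, 361.2 and 347.1 with scramble. The 3 lines did not overlap, with shco2 highest and shco4 lowest. It fell by 0.81 on the log2 scale with shco4 (limma adjusted p = 0.000941) and rose by 0.93 with shco2 (0.000482). CDK2 and its partner CCNE1, which activate NPAT, fell by 0.99 (0.00207) and 1.29 (0.00243) with shco4. A probe set outside the count went up: the second one of CSTF2T, a 3′ end processing factor, rose by 0.94 on the log2 scale (limma adjusted p = 0.00125), while the CSTF2T probe set counted gave -0.21 (0.746).

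SLBP and NPAT gave no call between shco4 and scramble. SLBP, the stem-loop binding protein, read 2147, 2425 and 2629 with shco4 and 3687, 3846 and 3755 with shco2, against 2732, 3103 and 2771 with scramble. The shco4 arrays were lowest and the shco2 arrays highest, without overlap. The log2 difference was -0.26 for shco4 against scramble (limma adjusted p = 0.0766) and -0.65 for shco4 against shco2 (0.00148). NPAT gave -0.21 (0.404) for shco4 against scramble. With shco2 against scramble 5 of the 12 genes rose and 0 fell, beside 10.7% and 9.95% of all probe sets. The counts were the same at an unadjusted p under 0.05, and the median log2 difference was 0.35. ZNF473, the zinc finger protein of the histone 3′ end complex, rose by 1.67 (0.00191), while its second, dimmer probe set gave -0.08. Between the hairpins 8 of the 12 were called lower with shco4, beside 16.1% of all probe sets.

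Among histone chaperones and S phase enzymes more genes fell than rose with shco4. Of 18 chaperone and deposition genes 2 rose and 5 fell with shco4 against scramble, with a median of -0.22. Over all probe sets 9.05% were called up and 9.75% down in that comparison. CHAF1B, a subunit of the chromatin assembly factor that follows the replication fork, fell by 0.84 (limma adjusted p = 0.00258), and NASP, the H3 and H4 chaperone, fell by 0.46 (0.00449). Of 20 measured S phase enzymes 17 fell and 0 rose (20 down and 0 up at an unadjusted p under 0.05), with a median of -1.20. PCNA, the sliding clamp of the replication fork, read 579.4, 1116 and 1011 with shco4, against 4017, 4492 and 4668 with shco2 and 2937, 3524 and 3128 with scramble, a log2 difference from scramble of -1.88 (0.00378). With shco2 against scramble 9 of the 18 chaperone genes and 3 of the 20 S phase enzymes rose, beside 10.7% of all probe sets. The count of S phase enzymes is near that share. The part of these changes in the histone values was not tested.

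**Figure D4:**
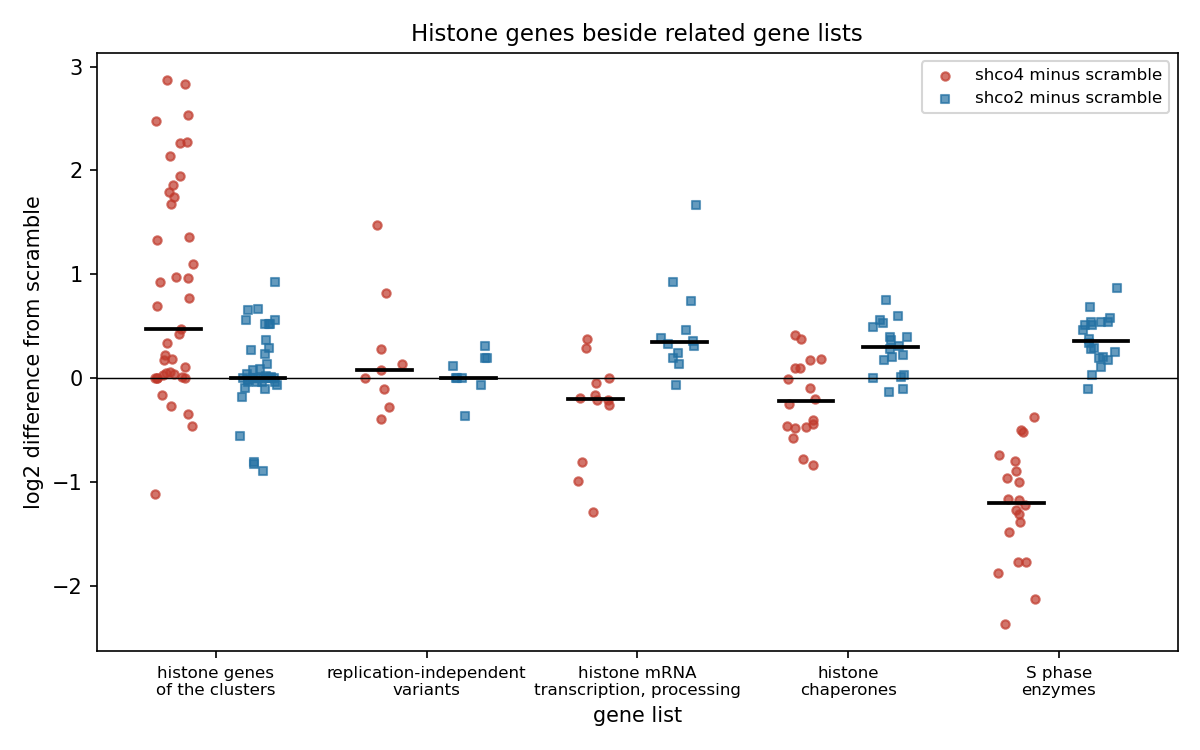
Log2 difference from scramble for the histone probe sets and for each gene of the context lists, 1 point per probe set, with a line at the list median, for shco4 (circles) and shco2 (squares). With shco4 the histone members have a median of 0.47 and reach 2.87, while the S phase enzymes have a median of -1.20.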

How the data were processed

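RNA of 9 cultures was measured on 1 Affymetrix 3′ array each. Per the labels' protocols, total RNA was copied to biotin-labelled cRNA. The deposited table holds linear intensity values that the authors had scaled, as the values show, to a common trimmed mean; the method of summary is not given in the sources used here. After a floor of 16 and log2, and without the 62 controls, lmFit and eBayes of limma 3.58.1 (R 4.3.3) were run on 22215 probe sets, with a mean per group, two-sided, with 0.53 prior degrees of freedom. The platform annotation gave 1 symbol to 19064 probe sets, several to 1043 and none to 2108, and the update of symbols through the RefSeq gene table changed 0. The replicates are biological replicates by their labels, and 3 arrays a group limit the precision.

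Members, lists, tests and alternatives were chosen with earlier results of these data known, and the split at an intensity of 100 after the values were seen. Members called in any comparison are named singly. From the context lists, each gene at its brightest probe set, SLBP, NPAT, H2AX, H2AZ1 and H3-3A were named whatever their values. The alternatives were another floor, quantile normalization, median centring, a filter on dim probe sets, a variance trend, the replicate number as a block, each array left out, 1 probe set a gene, and no _x_at or _s_at IDs. Deviations from the group means correlated between same-numbered arrays of shco4 and scramble at 0.235, 0.133 and 0.233, so the numbers were taken to pair these lines. Between shco2 and scramble they correlated at 0.29, 0.0571 and 0.255, and between shco4 and shco2 at 0.178, 0.0576 and 0.213. In 18 of 18 cases an array correlated best with the array of its own number in the other line. The main test did not use this pairing, which was fitted only in the alternative with a block. The model was run on simulated data with changes planted in brighter probe sets. For shco4 against scramble it called 14 of 67 changes of log2 0.5, 46 of 67 of log2 1 and 63 of 66 of log2 2. It also made 13 false calls among 22015 unchanged probe sets. For shco2 against scramble the counts were 12, 45 and 62, with 16 false calls. Small changes were thus mostly missed in the simulation. It held far fewer changed probe sets than the 4178 called on these arrays for shco4 against scramble. The adjustment was therefore stricter there, and these shares need not hold for the real data.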

Additional observations from a re-analysis of the deposited data

Results flagged for a closer look

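Several members differed between the 2 hairpins, by the limma test of shco4 against shco2 over all 9 arrays. In each of these 16 probe sets the shco4 arrays lay above the shco2 arrays on all 3 against all 3. The log2 differences were 2.85 for H1-2, 1.47 for H1-3, 3.03 for H2AC6, 1.27 for H2AC14 and 1.12 for H2AC17. Among H2B genes they were 2.18 for each of the probe sets of H2BC5, 1.73 for H2BC6, 2.02 for H2BC9, 0.81 for H2BC11, 1.0 for H2BC12, 0.96 for H2BC14, 2.06 for H2BC17 and 3.42 for H2BC21. Among H4 genes they were 2.35 for H4C8 and 1.03 for H4C9. No probe set measured DAND5, so the knockdown reached by each hairpin was not analysed here.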

How the results depend on the processing

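No called result of a member changed direction under the alternatives run; uncalled values near 0 did, such as H1-4 (0.05 for shco4 against scramble, and -0.24 to 0.37 with single arrays left out). For shco2 against scramble, the 0 members called up became 1 with quantile normalization (H2AC17), 3 with median centring and 3 with the filter (H2AC4, H2AC17 and H4C8 each time), 2 with the replicate block (H2AC4 and H4C8) and 0 to 2 with single arrays left out. The 1 called down became 0 with a floor of 64, 0 without _x_at and _s_at IDs, and 1 to 2 with single arrays left out. For shco4 against scramble, the 16 called up were 7 without _x_at and _s_at IDs and 15 with the replicate block. The 0 called down became 1 with centring and 1 with the filter (H3C6), and 0 to 1 with single arrays left out. The median of 0.47 became 0.00 with a floor of 64, which puts most members at the floor. It became 0.96 with the filter, which leaves dim ones out, and 0.18 without _x_at and _s_at IDs. Members can pass the filter through the shco4 arrays alone, so medians and calls under it are partly set by that selection. For shco4 against shco2, the 16 called up were 8 without _x_at and _s_at IDs and 14 with the replicate block. The 0 called down became 1 with centring and 1 with the block (H2AC4), 2 with the filter (H2AC4 and H3C3) and 0 to 1 with single arrays left out. The median of 0.42 became 0.00 with a floor of 64, 0.81 with the filter and 0.18 without _x_at and _s_at IDs. Of 33 calls of members, 23 remained with a floor of 64, 32 with quantile normalization, 30 with the block and 28 to 31 with single arrays left out.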
